A study of Homo sapiens with 6 samples.

Results

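Amino acids enter and leave cells through transporters of the solute carrier (SLC) families, and 10 such genes of the plasma membrane are described here in human neuroblastoma cells given teriflunomide. They are SLC7A1 and SLC7A3 (cationic amino acids), SLC7A5 and SLC43A1 (large neutral amino acids), SLC1A4 and SLC1A5 (alanine, serine, cysteine and glutamine), SLC38A1 and SLC38A2 (small neutral amino acids and glutamine), SLC6A9 (glycine) and SLC36A1 (proton-coupled uptake). They were chosen by name, with earlier results of these data known. They are 10 of the 19775 genes that the platform annotation gives at least 1 probe set of their own. Every probe set whose single gene symbol was one of them was used, 24 in all. A probe set is a group of short array probes read together as 1 value.

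The cells were IMR32, an established neuroblastoma line with an amplified MYCN gene, and RNA was read on 6 Affymetrix arrays. The 3 teriflunomide arrays came from cells given 118 µM of the drug for 24 h, and the 3 DMSO arrays from cells given 0.1% DMSO over the same time. Teriflunomide inhibits dihydroorotate dehydrogenase, an enzyme of pyrimidine synthesis; the labels do not say if DMSO was present with the drug, and an effect of vehicle alone cannot be told apart from it. The arrays of a group are labelled biological replicates, but nothing says that they came from separate cultures, so every p-value here is set against variation among arrays that may be technical. Arrays read RNA from all cells of a well, so less RNA per cell and fewer cells that hold it cannot be told apart.

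As background, uptake of amino acids through these proteins takes several forms. SLC7A5 (LAT1) is an obligatory exchanger that trades an internal amino acid such as glutamine for external leucine and its relatives, and it reaches the membrane only when bound to the heavy chain SLC3A2. SLC38A1 and SLC38A2 use the sodium gradient to concentrate the small neutral amino acids that such exchangers then spend. When amino acids run short, uncharged tRNA activates the kinase GCN2, translation of the transcription factor ATF4 rises, and ATF4 binds C/EBP-ATF response elements near genes for amino acid uptake and synthesis.

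After teriflunomide, 7 of the 8 tested transporters rose and 1 fell. SLC1A4 rose most, 5.44-fold, followed by SLC7A5 at 3.43-fold and SLC43A1 at 3.34-fold. SLC7A1, SLC38A2, SLC1A5 and SLC36A1 rose by less than 2-fold, and SLC38A1 fell slightly. SLC7A3 and SLC6A9 stayed at log2 2.18, the floor of the data, on all 6 arrays and were not tested. Among all 11998 genes tested with limma, 29.7% were called higher and 28.9% lower at an adjusted p under 0.05, 58.6% in either direction, so a call by itself was common. A rise of at least 2-fold was called for 5.24% of all genes and for 3 of the 8 tested transporters. For all 8 the teriflunomide and DMSO values stayed apart without overlap, 7 of them higher with teriflunomide; 67% of all genes did so in either direction and 33.9% with teriflunomide higher. The 8 tested transporters had a median log2 fold change of 0.58, against 0.001 over all genes tested. The transporters were chosen with earlier results of these data known, so these contrasts with all genes only describe them. All 8 lay at log2 6.69 or above on every array, far over the array medians of 2.63 to 2.66, so none entered the test through 1 group alone.

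**Figure D1:**
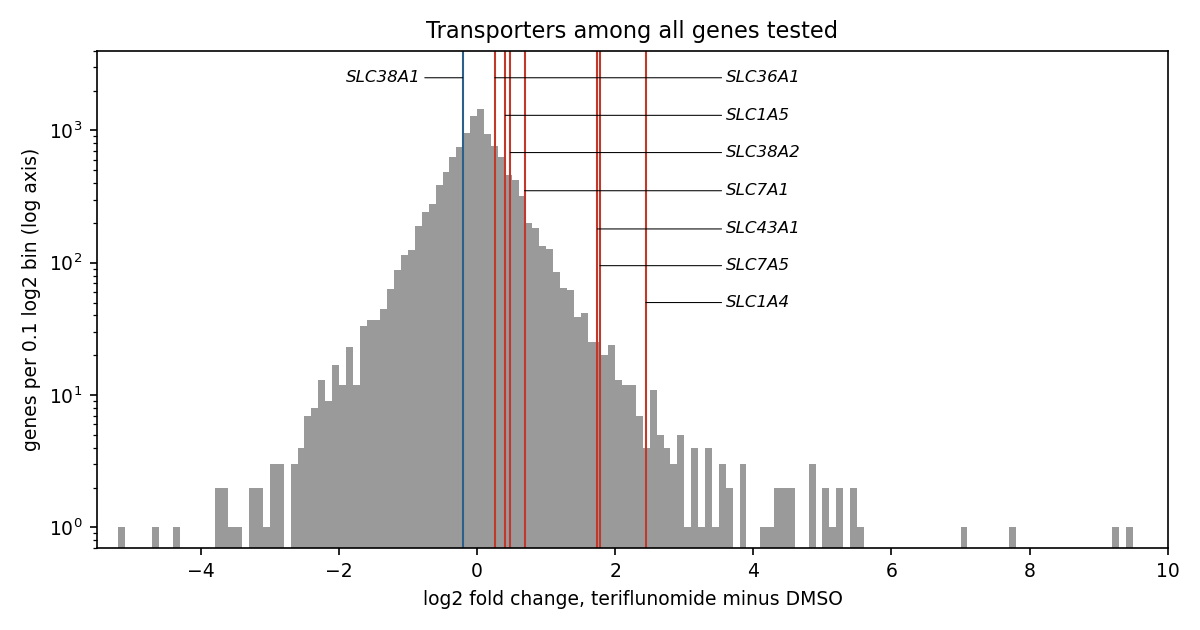
Distribution of log2 fold changes (teriflunomide minus DMSO) over the 11998 genes tested, with the number of genes per bin on a log axis and a vertical line for each of the 8 tested transporters. SLC1A4, SLC7A5 and SLC43A1 lie in the upper tail at 2.44, 1.78 and 1.74, and SLC38A1 lies just below 0 at -0.21.

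The facts of the arrays that bear on these values are few. Pearson's r over all probe sets, which are not independent, was at least 0.999 within the teriflunomide group and 0.998 within the DMSO group, and 0.9891 to 0.9903 between them. Of the adrenergic neuroblastoma markers, 5 of 6 had a probe set of their own and all 5 were tested, 2 called higher and 1 lower, with summed log2 values of 50.03 to 50.58 with teriflunomide and 50.04 to 51.49 with DMSO. PHOX2A, called higher, averaged log2 12.69 with teriflunomide and 11.93 with DMSO, and GATA3, also called higher, 13.58 with teriflunomide and 13.23 with DMSO. MYCN, called lower, averaged 14.69 with teriflunomide and 15.11 with DMSO. HAND2, at 6.92 with teriflunomide and 6.96 with DMSO, was not called, nor was DBH, a defining enzyme of these cells that was dim at 2.47 with teriflunomide and 3.41 with DMSO. The 3 blood markers measured (PTPRC, CD3E and CD14) lay at the lowest value on all arrays, as did PECAM1 and CDH5 of the 3 endothelial markers, while VWF averaged 2.22 in both groups. Of the 4 epithelial markers CDH1 was at the lowest value, and the other 3 (KRT8, KRT18 and EPCAM) were tested and not called, with the 4 summing to log2 14.9 to 15.2 with teriflunomide and 14.7 to 15.3 with DMSO. Of 4 fibroblast markers, COL1A1 and LUM were bright and rose while DCN was at the lowest value and COL1A2 averaged 2.18; their summed log2 values were 28.1 to 28.2 with teriflunomide and 26.4 to 26.7 with DMSO. The 3' minus 5' signal of ACTB, which depends on RNA quality, was 1.62 ± 0.07 with teriflunomide and 1.36 ± 0.03 with DMSO (log2 mean ± SD, n = 3 each, exact permutation p = 0.1, the smallest that 3 against 3 arrays allow). The same measure of GAPDH was 0.0627 ± 0.0207 with teriflunomide and 0.0495 ± 0.00596 with DMSO, overlapping between the groups (exact permutation p = 0.4). The fibroblast sum and the ACTB measure differed between the same arrays as the transporters below, and their part in the results was not tested.

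The promoter windows of the transporters were read for a pair of known elements. These were TGATGNAA, the core of the C/EBP-ATF response element bound by ATF4, and CACGTG, the E-box bound by MYC family proteins. The windows span 250 bases before to 50 bases after each annotated start in RefSeq, build GRCh38.p14, and both strands were searched; 9 of the 10 genes had at least 1 window, 15 windows in all. The stretches that hold a match follow, on the gene's strand, 5′ to 3′, with the match in capitals; they run to no more than 30 bases past the start.
SLC1A4, chr2:64989329-64989428, plus strand: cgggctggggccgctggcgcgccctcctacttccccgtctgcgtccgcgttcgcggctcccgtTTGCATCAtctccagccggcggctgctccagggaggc
SLC7A1, chr13:29595659-29595758, minus strand: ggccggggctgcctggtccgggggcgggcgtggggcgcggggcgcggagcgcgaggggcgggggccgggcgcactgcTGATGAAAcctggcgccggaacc
SLC38A1, chr12:46266487-46266586, minus strand: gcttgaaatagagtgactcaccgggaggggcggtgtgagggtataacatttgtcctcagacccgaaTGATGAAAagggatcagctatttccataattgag
SLC1A5, chr19:46784858-46784957, minus strand: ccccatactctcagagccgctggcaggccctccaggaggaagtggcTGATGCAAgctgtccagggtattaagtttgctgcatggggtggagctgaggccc
SLC7A5, chr16:87869585-87869684, minus strand: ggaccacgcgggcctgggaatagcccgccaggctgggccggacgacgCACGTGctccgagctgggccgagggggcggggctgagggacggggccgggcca
SLC43A1, chr11:57515762-57515861, minus strand: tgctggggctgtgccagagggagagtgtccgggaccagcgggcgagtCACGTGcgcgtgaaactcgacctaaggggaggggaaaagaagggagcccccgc
SLC36A1, chr5:151447530-151447629, plus strand: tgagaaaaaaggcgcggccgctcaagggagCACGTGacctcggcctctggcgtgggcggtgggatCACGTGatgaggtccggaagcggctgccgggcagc
SLC1A5, chr19:46787291-46787390, minus strand: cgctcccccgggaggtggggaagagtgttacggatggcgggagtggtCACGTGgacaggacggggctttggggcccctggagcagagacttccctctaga

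The first 4 stretches hold the C/EBP-ATF core and the other 4 the E-box, so each element was found for 4 of the 9 transporters with a window, SLC1A5 holding both at different annotated starts. Over all 27305 genes with a window, 4.46% held the C/EBP-ATF core and 8.77% the E-box. By window, each element was held by 4 of the 15 transporter windows, against 3.62% (core) and 7.26% (E-box) of all 35116 windows. The transporters were chosen with earlier results of these data known, so these shares only describe them, and a link to the changes was not tested. In SLC1A4 the core is on the opposite strand and begins 7 bases before the start, and in SLC7A1 it begins 7 bases after the start. SLC38A1, the transporter that fell, holds the same 8 letters as SLC7A1 (TGATGAAA), 4 bases before the start. When only the 250 bases before the start were read, the core was found for 1 transporter, SLC1A5, because the other 3 matches lie on or past the start. SLC38A2 and SLC6A9 held neither motif in these letters. For SLC38A2 the known amino acid response element lies in the first intron, outside the window, and for SLC7A1 a first-exon element is known from the rat gene. A match is a description of letters and no evidence of binding in these cells.

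**Figure D2:**
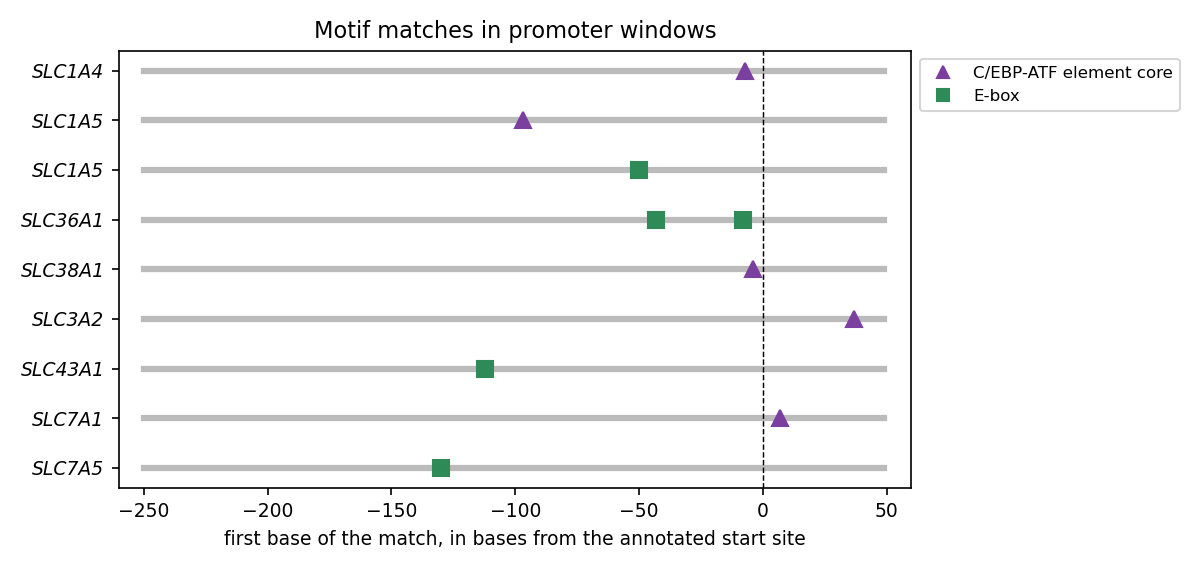
Positions of motif matches in promoter windows of the transporters and of SLC3A2, drawn as distance in bases from the annotated start (dashed line), with 1 grey bar per window that holds a match, triangles for the C/EBP-ATF core and squares for the E-box. The cores of SLC1A4, SLC38A1 and SLC7A1 lie within 7 bases of the start, while the E-boxes of SLC7A5 and SLC43A1 begin 130 and 112 bases before it.

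Both carriers of large neutral amino acids among the transporters described here rose. SLC7A5 had values of 11.53, 11.44 and 11.46 on the teriflunomide arrays, against 9.71, 9.72 and 9.67 on the DMSO arrays. The arrays of each group lay within 0.1 log2 unit of each other, and every teriflunomide array stood above every DMSO array. This was a change of 1.78 (log2, SE 0.04, limma adjusted p = 1.26e-05), a 3.43-fold rise with a 95% interval of 3.22 to 3.66. SLC7A5 has a single probe set of its own here and near-identical pseudogene copies, so its level is uncertain; the share that comes from those copies was not tested.

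SLC43A1 (LAT3), a facilitative carrier of leucine, isoleucine, valine, methionine and phenylalanine that needs no heavy chain, had values of 8.39, 8.81 and 8.14 on the teriflunomide arrays, against 6.70, 6.69 and 6.72 on the DMSO arrays. The teriflunomide arrays were spread more widely, with an SD of 0.34 against 0.02 with DMSO, and the groups did not overlap. SLC43A1 rose by 1.74 (SE 0.17, limma adjusted p = 0.000545). Within each array SLC7A5 changed by 0.04 relative to SLC43A1 (exact permutation p = 1). The wide spread of SLC43A1 leaves room for a difference that this test would miss.

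The partner of SLC7A5 rose further than the single probe set of SLC7A5 did. The level of SLC7A5 is uncertain, and a probe set annotated to its pseudogene copies changed by 2.51. SLC3A2, the heavy chain that SLC7A5, SLC7A6, SLC7A7, SLC7A8 and SLC7A11 share, had values of 11.54, 11.39 and 11.29 on the teriflunomide arrays, against 8.82, 8.82 and 8.87 on the DMSO arrays. SLC3A2 rose by 2.57 (SE 0.07, limma adjusted p = 2.25e-05). Relative to SLC3A2 within each array, SLC7A5 changed by -0.79, and the groups did not overlap. The exact permutation p was 0.1, the smallest that 3 against 3 arrays allow, and 0.133 after adjustment over the 4 pairs compared. One SLC3A2 window also held the C/EBP-ATF core, beginning 37 bases after the start on the opposite strand, in capitals here.
SLC3A2, chr11:62881719-62881748, plus strand: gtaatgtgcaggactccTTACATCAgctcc.

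The ASC carriers of the SLC1 family both rose, SLC1A4 far more than SLC1A5. SLC1A4 (ASCT1), a sodium-dependent exchanger of serine, alanine, cysteine and threonine, had values of 9.60, 9.88 and 9.65 on the teriflunomide arrays, against 7.38, 7.32 and 7.10 on the DMSO arrays. Every teriflunomide array lay more than 2 log2 units above every DMSO array. SLC1A4 rose by 2.44 (SE 0.11, limma adjusted p = 5.06e-05), a 5.44-fold rise with a 95% interval of 4.52 to 6.54, which ranked 72 of the 11998 genes.

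The probe sets of SLC1A4 agreed in direction and differed in size. Each was also tested singly, with adjustment over 27290 probe sets. The other bright probe sets changed by 2.70 (SE 0.11) and 1.94 (SE 0.07). A dim one, whose values were 3.40, 3.16 and 3.04 on the teriflunomide arrays and 2.36, 2.36 and 2.48 on the DMSO arrays, changed by 0.80, which a floor at log2 5 turned to 0. The fifth lay at 2.18 to 2.26 on all arrays and was not tested. Preferring probe sets with a plain suffix makes the dim one stand for the gene, so SLC1A4 then stood at 0.80.

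SLC1A5 (ASCT2), which exchanges glutamine and other neutral amino acids, had values of 9.06, 8.64 and 8.78 on the teriflunomide arrays, against 8.44, 8.35 and 8.47 on the DMSO arrays. The groups did not overlap, but the lowest teriflunomide array stood only a little above the highest DMSO array. SLC1A5 rose by 0.41 (SE 0.11, limma adjusted p = 0.0265). The call was lost with DMSO replicate 1, 2 or 3 or teriflunomide replicate 3 left out (limma adjusted p = 0.0676, 0.0809, 0.0608 and 0.0588), without a filter (0.0802) and when arrays were centred on poly-A spikes (0.0641). Within each array the change of SLC1A4 exceeded that of SLC1A5 by 2.04, a 4.10-fold gap, with no overlap between the groups (exact permutation p = 0.1, adjusted p = 0.133 over 4 pairs). With the mean of each gene's probe sets the excess was smaller, at 1.56.

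**Figure D3:**
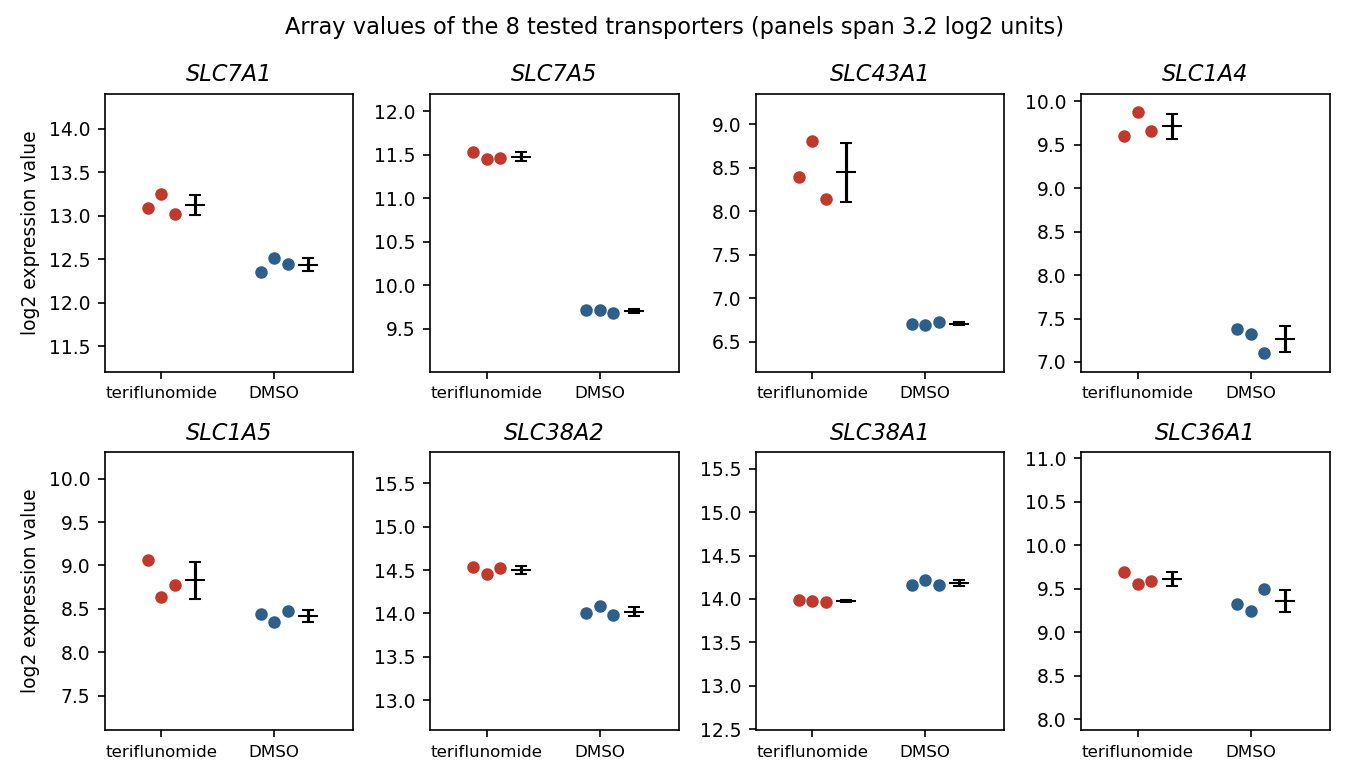
Log2 expression values of the 8 tested transporters on each array, teriflunomide left (red) and DMSO right (blue), with the mean and SD of the 3 arrays in black; every panel spans the same log2 range, and the panels have different origins. The groups do not overlap in any panel, SLC1A4 is farthest apart, and SLC38A1 alone is lower with teriflunomide.

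The sodium-coupled carriers of system A moved in opposite directions. SLC38A2 (SNAT2), which takes up alanine, serine, glutamine and methionine and is known to be induced when amino acids are withdrawn, had values of 14.53, 14.45 and 14.52 on the teriflunomide arrays, against 14.00, 14.08 and 13.98 on the DMSO arrays. The groups were well apart on this very bright probe set. SLC38A2 rose by 0.48 (SE 0.04, limma adjusted p = 0.00042). Its other probe sets rose by 0.74 (SE 0.05) and 0.76 (SE 0.04), so the brightest one gave the smallest change.

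SLC38A1 (SNAT1), a glutamine carrier of neurons, was the transporter that fell. Its values were 13.99, 13.98 and 13.96 on the teriflunomide arrays, against 14.16, 14.22 and 14.17 on the DMSO arrays. The arrays of each group were close together and the groups did not overlap, although the change was small: -0.21 (SE 0.03, limma adjusted p = 0.00241), or 1.16-fold lower. Another bright SLC38A1 probe set changed by -0.21 (SE 0.04, limma adjusted p = 0.0109 over probe sets). A dimmer one, with values of 7.12, 6.99 and 7.80 on the teriflunomide arrays and 7.82, 7.41 and 7.75 on the DMSO arrays, overlapped between the groups and stood at -0.36 (limma adjusted p = 0.279); without teriflunomide replicate 3 it stood at -0.61 (limma adjusted p = 0.0339). The fourth lay at the lowest value on all arrays.

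Set against each other within the same array, SLC38A2 gained 0.69 on SLC38A1, a 1.61-fold gap, with no overlap between the groups (exact permutation p = 0.1, adjusted p = 0.133 over 4 pairs). With the mean of each gene's probe sets the gain was 0.92.

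Among the carriers of cationic amino acids, SLC7A1 was measured and SLC7A3 was not detected. SLC7A1 (CAT-1), the widespread carrier of arginine, lysine and ornithine, had values of 13.09, 13.25 and 13.02 on the teriflunomide arrays, against 12.36, 12.51 and 12.44 on the DMSO arrays. All teriflunomide arrays were higher than all DMSO arrays. SLC7A1 rose by 0.69 (SE 0.07, limma adjusted p = 0.000755), a 1.61-fold rise.

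The 5 probe sets of SLC7A1 covered a wide range of brightness. A bright one with values of 9.19, 9.35 and 9.45 on the teriflunomide arrays and 8.25, 8.06 and 8.39 on the DMSO arrays rose by 1.10 (SE 0.11), and this was the gene's value where a plain suffix was preferred. A dimmer one, near log2 5, rose by 0.24 (limma adjusted p = 0.0236 over probe sets). That call was lost without DMSO replicate 1 or 3 or teriflunomide replicate 1 or 2 (limma adjusted p = 0.0646, 0.0728, 0.0572 and 0.0597). A probe set near log2 3 overlapped between the groups at 0.22 (limma adjusted p = 0.267), and the last averaged 2.18 and was not tested. SLC7A3 (CAT-3), a carrier known mainly from brain, had 1 probe set, at 2.18 on all 6 arrays, so the planned comparison of SLC7A1 with SLC7A3 could not be made.

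SLC36A1 (PAT1), which moves small amino acids such as proline and glycine together with protons and also works on lysosomes, had values of 9.70, 9.55 and 9.59 on the teriflunomide arrays, against 9.33, 9.25 and 9.49 on the DMSO arrays. The groups came close, with 9.55 as the lowest teriflunomide array and 9.49 as the highest DMSO array. SLC36A1 rose by 0.26 (SE 0.08, limma adjusted p = 0.033). The call was lost without DMSO replicate 1 or 2 or any 1 teriflunomide array (limma adjusted p = 0.093, 0.0814, 0.0968, 0.0536 and 0.0729), without a filter (0.0874), with array weights (0.0609) and when arrays were centred on poly-A spikes (0.182). Its other probe set lay at the lowest value on all arrays. SLC6A9 (GlyT1), the sodium- and chloride-dependent glycine carrier, had 1 probe set, at 2.18 on all 6 arrays; a dim value on such an array cannot show that the transcript is absent.

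Over the 24 probe sets of the 10 genes, 18 were tested, and of these 14 were called higher, 2 lower and 2 neither. Over all 27290 probe sets tested, 23.7% were called higher and 25.2% lower. Probe sets of the same gene read the same RNA on the same arrays, so these counts are not of independent readings. No gene with several tested probe sets had them called in opposite directions. Of the 6 probe sets not tested, 4 were at the lowest value on every array.

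**Figure D4:**
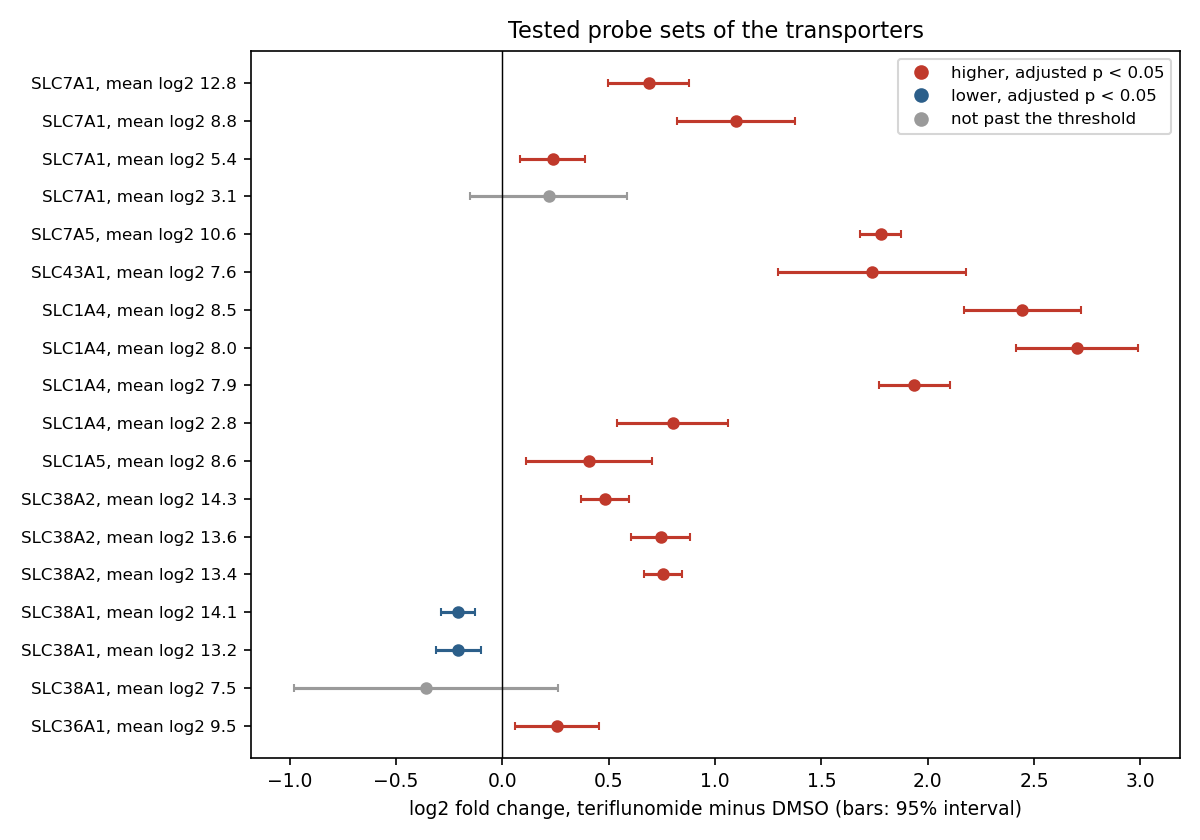
Log2 fold change (teriflunomide minus DMSO) with its 95% interval for each of the 18 tested probe sets, labelled by gene and mean log2 value and coloured by call. The 3 bright probe sets of SLC1A4 lie at 1.94 to 2.70, all 3 SLC38A2 probe sets lie between 0.48 and 0.76, and the SLC38A1 probe sets lie below 0.

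Other amino acid transporters listed under the plasma membrane were called in both directions. The list was drawn up by gene name, and the place of each protein in the cell was not measured. Of 38 such genes, 35 had a probe set of their own and 20 were tested: 3 were higher, 8 lower and 9 not past the threshold, with a median log2 fold change of -0.04. These are shares of 15% higher and 40% lower, against 29.7% and 28.9% of all genes tested. For the 8 tested transporters described above the counts were 7 higher and 1 lower; the difference between the lists was not tested, and both were chosen with results of these data known. The gene of this list that rose most was SLC7A11, the cystine-glutamate exchanger that also binds SLC3A2. Its values were 11.64, 11.69 and 11.49 on the teriflunomide arrays, against 6.30, 6.64 and 6.59 on the DMSO arrays. This was a change of 5.10 (SE 0.11), and SLC3A2 came next at 2.57. SLC3A1, another heavy chain, was called at 0.99 but had means of 3.62 with teriflunomide and 2.63 with DMSO, a difference that a floor at log2 5 turned to 0. With DMSO values of 2.47, 2.90 and 2.51, against array medians of 2.63 to 2.66, SLC3A1 passed the filter only through its teriflunomide arrays. Its place among the 3 higher genes is therefore only a description. Its call was also lost without any 1 DMSO array or without teriflunomide replicate 1 or 2 (limma adjusted p = 0.0625 to 0.128).

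Carriers of acidic amino acids stood among those called lower. SLC1A3, a glutamate and aspartate carrier known from glia, had values of 5.32, 4.94 and 4.78 on the teriflunomide arrays, against 7.42, 7.32 and 7.35 on the DMSO arrays. It changed by -2.35 (SE 0.14, limma adjusted p = 0.000118). This was the largest fall of the list with the brightest probe set standing for each gene. SLC1A1, a neuronal glutamate carrier, changed by -1.18 (SE 0.27) and SLC1A2 by -1.04 (SE 0.35). SLC1A2 was dim, at 2.74 with teriflunomide and 3.78 with DMSO, and a floor at log2 5 turned its change to 0, while SLC1A1 then stood at -0.93 (limma adjusted p = 0.0525). The SLC1A2 call was also lost with the replicate number as a block (limma adjusted p = 0.0667), without DMSO replicate 2 or 3 or without any 1 teriflunomide array (limma adjusted p = 0.113 to 0.132). SLC1A1, SLC1A2, SLC3A1, SLC16A10, SLC7A2, SLC7A6, SLC6A15, SLC43A2 and SLC7A8 were chosen after their values were seen.

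Some relatives of the transporters that rose also fell. SLC7A2 (CAT-2), the cationic relative of SLC7A1, had values of 10.21, 10.45 and 10.20 on the teriflunomide arrays, against 11.04, 11.08 and 11.09 on the DMSO arrays, a change of -0.78 (SE 0.07, limma adjusted p = 0.000501). SLC7A6, a light chain that exchanges arginine for neutral amino acids, had values of 9.37, 9.39 and 9.22 on the teriflunomide arrays, against 10.39, 10.21 and 10.22 on the DMSO arrays, a change of -0.95 (SE 0.07, limma adjusted p = 0.000235). Both had groups that lay well apart. SLC6A15, a sodium-coupled carrier of branched-chain amino acids in neurons, changed by -0.50 (SE 0.11), and by -0.25 as the mean of its probe sets. SLC43A2 and SLC7A8, of the families of SLC43A1 and SLC7A5, were not called, at 0.14 and -0.04 (limma adjusted p = 0.247 and 0.466). The count of 8 lower genes became 4 with a filter at the 75th percentile, and 5 with a floor at log2 5, without DMSO replicate 3 or without teriflunomide replicate 2.

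In the lists of lysosomal and mitochondrial amino acid transporters, SLC25A12 alone was called with a change of at least 2-fold. Of 5 tested lysosomal genes 2 rose, a share of 40% against 29.7% of all genes: SLC15A4 by 0.26 and SLC38A9, an arginine sensor of the mTORC1 pathway, by 0.22; neither call held with centring on poly-A spikes. Of 8 tested mitochondrial carriers, 2 rose and 2 fell, shares of 25% each that lie near those of all genes. SLC25A12, the aspartate-glutamate carrier of neurons and muscle, fell to 6.23, 6.54 and 6.31 on the teriflunomide arrays, against 8.11, 8.27 and 8.24 on the DMSO arrays (-1.85, SE 0.09, limma adjusted p = 7.36e-05). SLC25A44, a carrier of branched-chain amino acids, changed by -0.31 (SE 0.07) and SLC25A29, of basic amino acids, by 0.27 (SE 0.06). The other carrier called higher, chosen after its values were seen, was SLC25A15, the ornithine carrier of the urea cycle, at 0.13 (SE 0.04, limma adjusted p = 0.0371). The count of 2 higher carriers became 1 without DMSO replicate 1, teriflunomide replicate 2 or teriflunomide replicate 3.

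Over the 183 other tested genes whose symbol begins with SLC, 51 were higher and 50 lower, shares of 27.9% and 27.3% that lie near those of all genes. At their ends were SLC44A2, a choline transporter-like gene, at 2.52 (SE 0.06), SLC16A14 at 2.18 (SE 0.16) and SLC35D3 at -2.01 (SE 0.27).

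**Figure D5:**
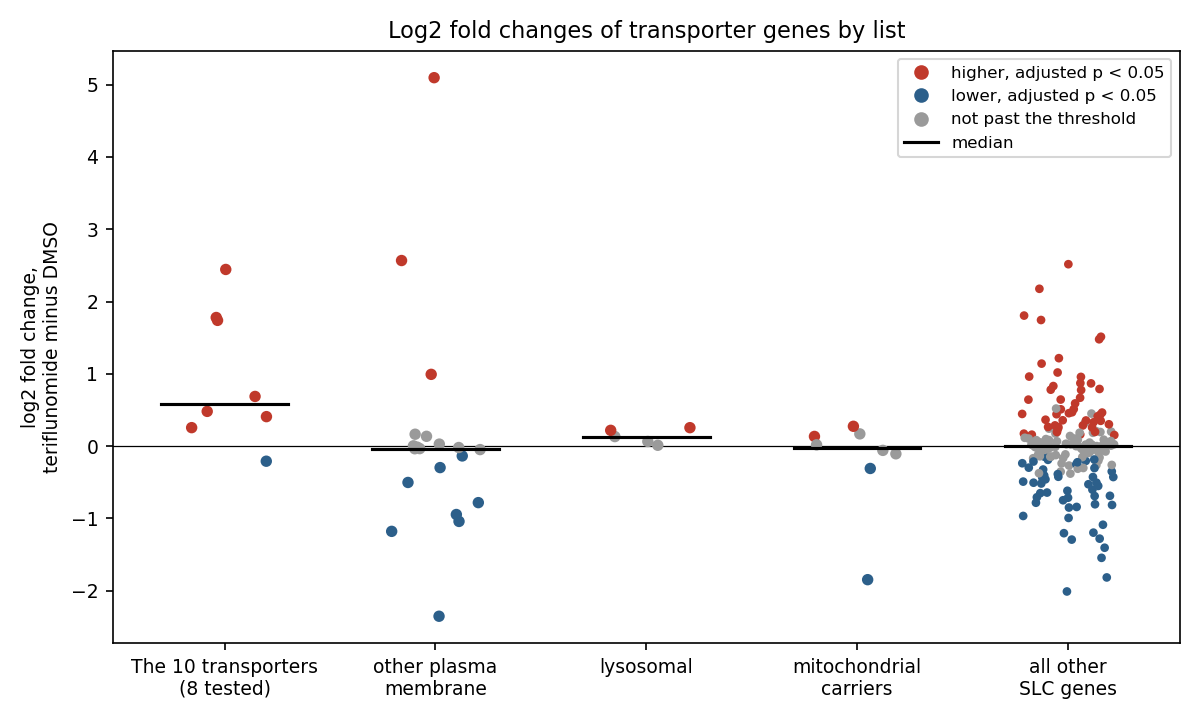
Log2 fold changes (teriflunomide minus DMSO) of tested genes in 5 transporter lists, 1 point per gene coloured by call, with the list median as a black line; sideways spread within a list only separates points. The 8 tested transporters have a median of 0.58, the 20 other plasma membrane genes a median of -0.04 with SLC7A11 at 5.10 and SLC1A3 at -2.35, and SLC25A12 stands apart among the mitochondrial carriers.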

How the data were processed

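The deposited table holds log2 expression values for each probe set on each array. The submitters' processing notes name GCRMA; its version is not given in the sources used here. GCRMA models background from probe sequence and equalises array distributions, so dim probe sets pile up at the lowest value (33.8% to 34.2% of each array) and a change shared by every gene would be removed. Arrays have no read depth; 3 per group limits precision. Symbols came from the platform annotation: 41097 of 54675 probe sets had 1, 1801 several and 11777 none, and 41043 matched RefSeq GRCh38.p14 by gene identifier.

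Probe sets at or above their array's median on at least 3 of 6 arrays were tested (27290, without the controls), and the one with the highest mean stood for its gene (11998). Teriflunomide was compared with DMSO by limma 3.58.1 (R 4.3.3, lmFit and eBayes, no covariates), two-sided, with Benjamini-Hochberg adjustment over all genes or all probe sets and a threshold of 0.05. Gene pairs were compared by two-sided exact permutation of within-array differences (Python 3.11.15, scipy 1.17.1). The fit was tested on simulated data. Members and lists were chosen with earlier results of these data known. Named genes were the 10 members, SLC3A2, SLC7A11 and, per list, the 2 largest calls and the largest in the opposite direction. Alternatives covered filter, scaling, probe set choice, a floor at log2 5, eBayes settings, array weights, a replicate block and leaving out each array. Correlations of deviations between same-numbered arrays were 0.044, 0.099 and -0.09, and those between differently numbered arrays ran from -0.158 to 0.141. With 3 arrays per group these values cannot tell whether the numbers pair the arrays.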

Additional observations from a re-analysis of the deposited data

Results flagged for a closer look

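One signal lay outside the gene tests, in a probe set annotated to the pseudogenes SLC7A5P2 and SLC7A5P1 together, which are copies of SLC7A5. It had values of 11.97, 11.98 and 11.88 on the teriflunomide arrays, against 9.68, 9.27 and 9.37 on the DMSO arrays, and changed by 2.51 (SE 0.12, limma adjusted p = 0.000101 over probe sets). SLC7A5 itself changed by 1.78, and the share of either signal that comes from the gene or its copies was not tested. Of 5 other probe sets whose several symbols include SLC7A5P1, 3 were tested; they stood at -0.16, -0.28 and -0.94 (limma adjusted p = 0.364, 0.259 and 0.0774 over probe sets).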

How the results depend on the processing

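Over the 17 alternatives, the count of transporters called higher ranged from 5 to 7 and that called lower stayed at 1; SLC1A5 and SLC36A1 were the calls lost, and no named gene changed direction. With the replicate number as a block, 7 transporters were higher, and the mitochondrial carriers called higher numbered 1, SLC25A29 being lost (limma adjusted p = 0.0551). The block also lost SLC1A2 (0.0667) and SLC38A10 (0.0613), leaving 6 lower plasma membrane genes. Whether the numbers pair the arrays is not known. The 2 mitochondrial carriers called higher also became 1 with no filter, with a plain suffix preferred, with array weights and with the mean of probe sets, and 0 with centring on poly-A spikes, where the 2 lysosomal genes became 0 as well; leaving out 1 array gave 1 to 2 carriers. The 8 lower plasma membrane genes became 4 with a filter at the 75th percentile, which tests fewer genes, and 5 with values under log2 5 raised to 5, with 5 to 6 when 1 array was left out. Transporters with the C/EBP-ATF core numbered 4, and 1 in the 250 bases before the start alone. Poly-A centring moved the median of all genes to -0.08. Changes of probe sets near the lowest value depend on the background model, and the cause of the other differences was not tested.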
